A study of Mus musculus with 12 samples.

Results

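Expression of 10 apolipoprotein genes was described in liver RNAseq of male mice treated with CITCO, an activator of the human form of the nuclear receptor CAR. The genes were Apoa1, Apoa2, Apoa4, Apoa5, Apob, Apoc1, Apoc2, Apoc3, Apoc4 and Apoe. They were listed by symbol in a table of 17859 genes and matched by Ensembl identifier to the counts of 51912 genes. Their values did not enter this rule, but earlier results of these data were known when they were chosen. All 10 passed the filter on low counts that left 8594 genes to test.

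Apolipoproteins are the protein part of the particles that carry lipid in blood. The liver secretes most of them, and its hepatocytes build very low density lipoprotein (VLDL) on apolipoprotein B and release the proteins of high density lipoprotein (HDL). The smaller, exchangeable apolipoproteins move between particles, where they steer the enzyme lipoprotein lipase and the uptake of remnant particles by liver receptors.

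The 12 mice fell into 4 groups of 3. WT mice received corn oil, the vehicle, or CITCO. The hCAR/hPXR mice, in which human CAR and PXR stand in place of the mouse receptors, received CITCO. The Car KO/hPXR mice, which lack mouse Car and carry human PXR, also received CITCO. Every group was injected intraperitoneally each day for 4 days and killed on day 5, at 10 mg/kg CITCO according to the sample labels, while the study's methods also name a higher dose for such short treatments. No humanised mice given corn oil were analysed here, so an effect of CITCO in these genotypes cannot be told apart from the genotype. Nothing in the labels says how the mice of a group were housed or bred. The p-values rest on the spread between the 3 mice within each group. That spread was estimated over all 12 libraries at once and drawn toward the spread of other genes.

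The libraries capture only the 3' ends of mRNA and held between 1167027 and 2341572 counts. Mouse Nr1i2, which encodes PXR, had 0 to 2 counts in the humanised libraries and 100 to 199 in WT libraries, and Nr1i3, which encodes CAR, had 0 to 5.56 and 104.27 to 286.75. Cyp2b10, the classical target gene of CAR, was counted 184 to 288 times in the hCAR/hPXR libraries and at most 6 times elsewhere. The libraries followed their labels in these genes, and hepatocyte markers were abundant in all of them, at a summed 24882 to 40347 CPM (counts scaled to library size with edgeR's TMM factors).

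The genes of this family lie in groups along the genome. Apoa1, Apoc3, Apoa4 and Apoa5 share 43340 bases of chromosome 9 (GRCm38, 46228580 to 46271919). Apoc2, Apoc4, Apoc1 and Apoe share 27610 bases of chromosome 7 (19671579 to 19699188), all on the minus strand. Apob stands alone on chromosome 12 (7977648 to 8016835), and Apoa2 lies on chromosome 1 (171225054 to 171226379).

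A pair of sequences is shown for the genes with the largest differences. Any part of the second in the level of its gene was not tested. The first is the last coding stretch of Apoc2, 88 bases at chr7:19671761-19671848 on the minus strand, with the stop codon in capitals. The annotated transcripts of Apoc2 and of the read-through gene Gm44805 share it letter for letter, so that a read from here cannot be given to either with certainty.

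Apoc2 and Gm44805, last coding exon: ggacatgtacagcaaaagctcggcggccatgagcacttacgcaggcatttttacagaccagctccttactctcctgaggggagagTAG

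The second is the 102 bases before the start of Apoa4 in the GENCODE annotation, at chr9:46240594-46240695 on the plus strand, with letters from RefSeq (GRCm38.p6), whose own start for Apoa4 is position 46240844. Capitals mark a match to CAAAGTNCA, part of the paired repeat read by HNF4 and related liver receptors, 34 bases before the GENCODE start.

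Apoa4, upstream: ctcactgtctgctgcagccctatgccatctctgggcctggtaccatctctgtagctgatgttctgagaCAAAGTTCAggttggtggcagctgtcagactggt

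Promoter windows were available for 8 of the 10 genes and were searched on both strands, and Apoa4 was the only one of the 8 with CAAAGTNCA, against 1.41% of 32851 mouse promoter windows of the same length. The core site AGGTCA, which many nuclear receptors read, stood in the windows of Apoc2 and Apoc4 and in 16.3% of all windows. TATAAA stood in those of Apoa2, Apoa5 and Apob and in 13.6% of all windows. These matches describe letters only, and the letters of CAAAGTNCA were widened with an N after the Apoa4 sequence had been seen.

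Together the 10 genes took between 2.43% and 3.40% of all counts. Levels differed widely between genes, and in CPM per kilobase of the longest transcript, averaged over the 12 libraries, Apoe stood first at 10421, followed by Apoa2 at 7096, Apoc1 at 4425, Apoa1 at 3899 and Apoc3 at 3628. Apoa5 (365) and Apoc4 (363) were level with each other. Apoc2 followed at 153, Apoa4 at 64.3 and Apob at 35.0 CPM per kilobase. Reads of these libraries come from the end of a transcript and do not grow in number with its length, so division by length lowers long transcripts, most of all the 13934 bases of Apob. In CPM without that division the order was Apoe (14672), Apoa1 (4035), Apoa2 (3676), Apoc3 (2572), Apoc1 (2354), Apoa5 (917), Apoc4 (761), Apob (487), Apoa4 (117) and Apoc2 (111).

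The spread between mice of one group differed among the 10 genes. The SD of log2 CPM within groups had a median of 0.191 over the 10 genes, against 0.371 over all genes tested and 0.232 over the 2703 genes with at least 40 CPM. Apob was the steadiest (0.0936) and Apoc2 the least steady (0.385), followed by Apoa4 (0.305), Apoa5 (0.264) and Apoa2 (0.233). Apoc2, Apoa4, Apoa5 and Apoa2 were above the median of 0.232, and the rest were below it. In bulk liver RNA, fewer cells of a type and less RNA per cell cannot be told apart.

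**Figure D1:**
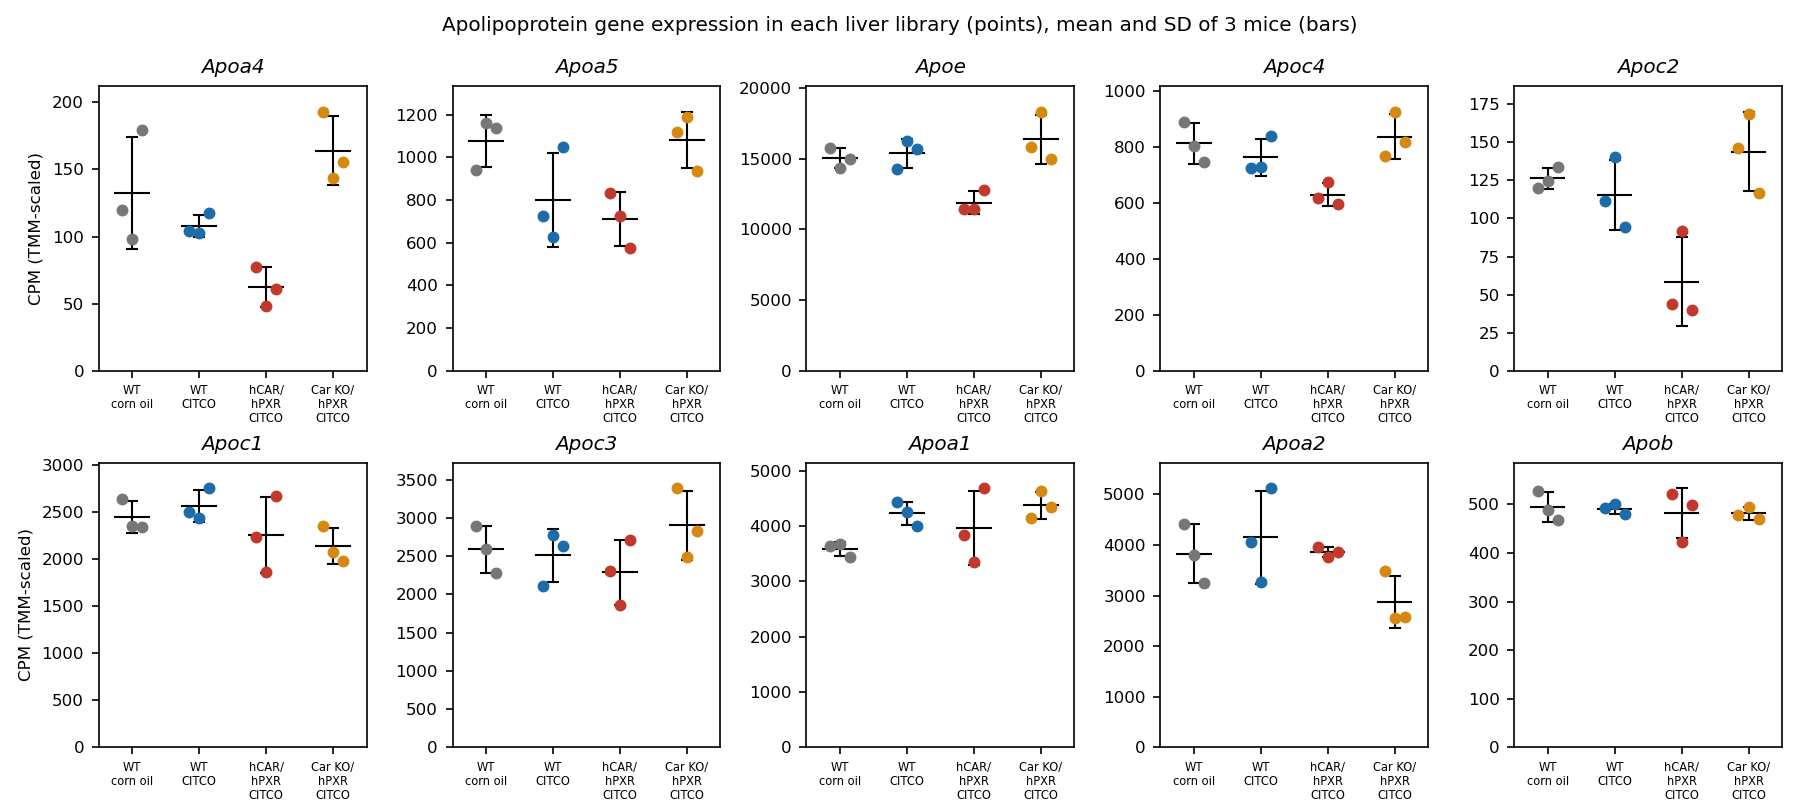
CPM of each apolipoprotein gene (vertical axes, each from 0) in the 12 liver libraries, by group along the horizontal axis; points are mice, and the line and bars give the mean and SD of 3 mice. The hCAR/hPXR points of Apoa4, Apoc2, Apoe and Apoc4 lie below all 9 points of the other groups, and those of Apob lie among them.

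Apoa4, a protein of chylomicrons and HDL that in mouse is made in both intestine and liver, was the gene with the clearest difference. It stood at 119, 98.5 and 179 CPM in WT mice given corn oil and at 104, 102 and 117 CPM in WT mice given CITCO. It stood at 77.7, 48.0 and 60.9 CPM in hCAR/hPXR mice and at 193, 144 and 155 CPM in Car KO/hPXR mice. All 3 hCAR/hPXR mice were below every other mouse, and the Car KO/hPXR mice were above every WT mouse given CITCO but overlapped with those given corn oil.

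Between the genotypes that share human PXR and differ in human CAR, Apoa4 was 62.2 ± 14.9 CPM in hCAR/hPXR and 164 ± 25.8 CPM in Car KO/hPXR mice (SD, n = 3 each). The log2 fold change was -1.40 (SE 0.22, 95% interval -1.86 to -0.93, Benjamini-Hochberg adjusted p = 0.0051 by the quasi-likelihood test of edgeR), a level 0.380 times that of Car KO/hPXR mice. This was rank 10 by p-value among all genes tested, and Apoa4 passed the test in all 17 alternative analyses that bear on this comparison, with adjusted p-values up to 0.0401. These were not all separate checks. The analysis without a limit on the fold reused the same fit, and summing Apoc2 with Gm44805 left the Apoa4 counts unchanged. Against WT corn oil mice Apoa4 fell by 1.09 on the log2 scale (SE 0.22, adjusted p = 0.0174, edgeR). That call was lost without WT corn oil replicate 3, the highest of its group (-0.81, adjusted p = 0.138), without hCAR/hPXR replicate 2 (-0.93, adjusted p = 0.0857) and without hCAR/hPXR replicate 3 (-1.07, adjusted p = 0.0782).

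The comparison with WT mice given the same CITCO treatment did not pass for Apoa4, with a log2 fold change of -0.79 (SE 0.22, 95% interval -1.26 to -0.32, adjusted p = 0.187, edgeR). Car KO/hPXR mice differed from WT CITCO mice by 0.60 (SE 0.21, adjusted p = 0.328) and from WT corn oil mice by 0.31 (adjusted p = 0.936). Within WT mice, CITCO against corn oil gave -0.30 (SE 0.21, adjusted p = 0.735). A test for any difference among the 4 groups passed for Apoa4 (adjusted p = 0.0115, edgeR), and that call was lost without hCAR/hPXR replicate 2 (adjusted p = 0.0543) and without hCAR/hPXR replicate 3 (adjusted p = 0.0524).

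Transcripts on the opposite strand overlap Apoa4, and of these Gm10680 had at most 5.10 counts and Gm47528 none. Markers of small intestine, the other organ that makes Apoa4, were checked in the same libraries. Fabp2, which liver also expresses, stood at 28.3 to 61.2 CPM, and Vil1, Lct, Sis and Cdx2 had no count in any library. The genes whose log2 CPM followed that of Apoa4 most closely over the 12 libraries, as a description without a test, were Npc1 (Pearson's r = 0.944), Bhmt2 (0.914) and Tlcd1 (0.897). Npc1 moves cholesterol out of lysosomes, and it stood at 70.7 ± 4.94 CPM in hCAR/hPXR and 109 ± 18.1 CPM in Car KO/hPXR mice (SD, n = 3).

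Apoc2, the activator that lipoprotein lipase needs to break down triglyceride, was the other gene that edgeR called, and its call depends on how reads were divided between genes. It was listed at 267.84, 176.9 and 222 counts in WT corn oil mice and at 171.79, 202.89 and 134.1 counts in WT CITCO mice. It was listed at 84.12, 159 and 48.21 counts in hCAR/hPXR mice and at 229.9, 202 and 142 counts in Car KO/hPXR mice. The libraries of hCAR/hPXR mice 1 and 3 were the lowest of all, and the fractions show that reads had been divided with another gene.

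That gene is Gm44805 (chromosome 7, 19671584 to 19681423, minus strand), annotated as running from within Apoc4 through Apoc2. Its transcripts begin at 19681423 or 19681410, inside the first exon of Apoc4, and end in the same last exons as Apoc2. RSEM gave it 167.88, 0 and 174.79 counts in the hCAR/hPXR libraries, 0.1, 0 and 0 in the Car KO/hPXR libraries, 10.21, 14.11 and 41.9 in the WT CITCO libraries and 18.16, 39.11 and 0 in the WT corn oil libraries. It therefore held 66.6% and 78.4% of the summed counts of Apoc2 and Gm44805 in hCAR/hPXR mice 1 and 3 and at most 23.8% in any library outside that group. RSEM gave it none in the library of hCAR/hPXR mouse 2, so this division of reads was not common to the 3 mice.

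**Figure D2:**
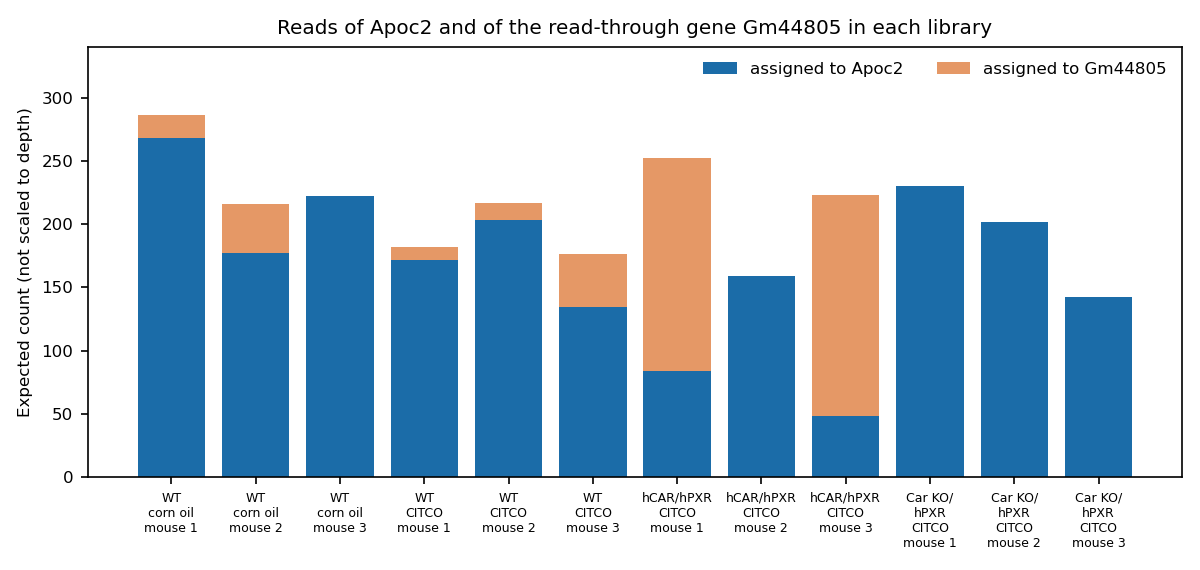
Expected counts assigned to Apoc2 (blue) and to Gm44805 (orange) in each library (horizontal axis), stacked and not scaled to depth. The stacks of hCAR/hPXR mice 1 and 3 reach 252 and 223 counts, within the range of the other groups, but most of each is orange.

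Taken alone, Apoc2 was 58.6 ± 29.0 CPM in hCAR/hPXR mice and 144 ± 26.1 CPM in Car KO/hPXR mice (SD, n = 3). The log2 fold change was -1.28 (SE 0.25, adjusted p = 0.0242, edgeR), and it was -1.10 against WT corn oil mice (SE 0.25, adjusted p = 0.0432). Against WT CITCO mice it was -0.97 and did not pass (SE 0.25, adjusted p = 0.157), although DESeq2 called it there (adjusted p = 0.0288). The call against Car KO/hPXR mice was lost without hCAR/hPXR replicate 1, hCAR/hPXR replicate 3 or any 1 of the Car KO/hPXR replicates, with adjusted p-values between 0.0622 and 0.129. The call against corn oil was lost without hCAR/hPXR replicate 1 or 3 or any 1 of the corn oil replicates, with adjusted p-values between 0.0895 and 0.227, and the comparison with WT CITCO passed without hCAR/hPXR replicate 2 (-1.46, adjusted p = 0.00475).

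With the reads of Apoc2 and Gm44805 added together, a choice made after the data were seen, no comparison passed. The sum was 128, 152 and 134 CPM in WT corn oil mice and 118, 150 and 124 CPM in WT CITCO mice. It was 131, 92.0 and 186 CPM in hCAR/hPXR mice and 146, 169 and 117 CPM in Car KO/hPXR mice, so that all groups overlapped. The log2 fold change of hCAR/hPXR against Car KO/hPXR mice became -0.09 (95% interval -0.54 to 0.36, adjusted p = 0.926, edgeR), against WT corn oil mice -0.03 (-0.47 to 0.41, adjusted p = 0.981) and against WT CITCO mice 0.05 (-0.40 to 0.50, adjusted p = 0.968).

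Gm44805 by itself passed no comparison by edgeR. Its smallest adjusted p-value was 0.0627, for hCAR/hPXR against Car KO/hPXR mice, which DESeq2 called (adjusted p = 0.0226). The intervals given for the summed reads are ranges of differences compatible with those reads, and they are not limits of detection. Differences beyond their bounds could also go uncalled. Apoa4 in hCAR/hPXR against WT CITCO mice, for example, did not pass at -0.79 on the log2 scale (SE 0.22, adjusted p = 0.187, edgeR). The genes with the pattern most like that of Apoc2 alone, as a description over the 12 libraries, were Ghr (r = 0.916), Acss3 (0.899) and 1600014C10Rik (0.864). Ghr, the receptor for growth hormone, stood at 514 ± 75.3 CPM in hCAR/hPXR mice and 696 ± 76.3 CPM in Car KO/hPXR mice (SD, n = 3).

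Apoe and Apoc4, the neighbours of Apoc2, were lowest in the same group and gave no call in a comparison of groups. Apoe, the ligand by which remnant particles are taken up into liver cells, was 15777, 14351 and 14993 CPM in WT corn oil mice and 14272, 16238 and 15660 CPM in WT CITCO mice. It was 11428, 11419 and 12814 CPM in hCAR/hPXR mice and 15849, 18313 and 14954 CPM in Car KO/hPXR mice. The hCAR/hPXR mice were the lowest 3 of all, and the other groups overlapped with one another.

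The log2 fold change of Apoe in hCAR/hPXR mice was -0.37 against WT CITCO (SE 0.18, adjusted p = 0.580, edgeR), -0.46 against Car KO/hPXR (SE 0.18, adjusted p = 0.353) and -0.34 against WT corn oil mice (SE 0.18, adjusted p = 0.540). DESeq2 gave adjusted p-values of 0.0304, 0.0022 and 0.0483 for the same comparisons and 0.00588 for any difference among the 4 groups. These are levels between 0.726 and 0.790 times those of the other groups by edgeR, short of the 1.5-fold limit that a call between groups also needed. Kupffer cells make Apoe too, and the 11 markers of that cell type, all counted, summed to 483 to 604 CPM in hCAR/hPXR mice, 376 to 556 in WT CITCO, 412 to 435 in Car KO/hPXR and 308 to 379 in WT corn oil mice. Of these only Marco passed a test by edgeR, at 1.82 against WT corn oil (adjusted p = 0.0202), a call lost without WT corn oil replicate 2 or 3 or hCAR/hPXR replicate 1 or 3 (adjusted p between 0.0837 and 0.12). Their part in the Apoe level was not tested.

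Apoc4, a minor exchangeable apolipoprotein of VLDL, was 618, 676 and 596 CPM in hCAR/hPXR mice. It was 724 to 839 CPM in WT CITCO mice, 747 to 891 CPM in WT corn oil mice and 768 to 926 CPM in Car KO/hPXR mice, so that here again the hCAR/hPXR mice were below all 9 others. The log2 fold change was -0.28 against WT CITCO (adjusted p = 0.629, edgeR), -0.41 against Car KO/hPXR (adjusted p = 0.302) and -0.37 against WT corn oil mice (adjusted p = 0.347), with an SE of 0.15 in each. DESeq2 gave an adjusted p of 0.0351 against Car KO/hPXR mice, again at less than 1.5-fold. The first exon of Gm44805 lies in Apoc4, but the Apoc4 counts were whole numbers in all but 1 library.

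Apoc1, which restrains the uptake of lipoproteins and activates the enzyme LCAT, completes the cluster. It was 2448 ± 173 CPM in WT corn oil, 2568 ± 165 in WT CITCO, 2261 ± 406 in hCAR/hPXR and 2140 ± 193 CPM in Car KO/hPXR mice (SD, n = 3). The Car KO/hPXR mice, at 1984 to 2357 CPM, did not overlap with the WT CITCO mice, at 2442 to 2755 CPM. That difference was -0.26 on the log2 scale and did not pass (SE 0.17, adjusted p = 0.673, edgeR).

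Apoa5, which helps lipoprotein lipase act on triglyceride, differed most among the remaining genes of chromosome 9. It was 938, 1158 and 1138 CPM in WT corn oil mice and 725, 626 and 1048 CPM in WT CITCO mice. It was 831, 727 and 576 CPM in hCAR/hPXR mice and 1120, 1189 and 935 CPM in Car KO/hPXR mice. The hCAR/hPXR mice were below the corn oil and the Car KO/hPXR mice and overlapped with WT mice given CITCO, of which mouse 3 was far above the other 2.

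For Apoa5 the log2 fold change of hCAR/hPXR mice was -0.60 against Car KO/hPXR (SE 0.20, adjusted p = 0.233, edgeR) and -0.60 against WT corn oil mice (SE 0.20, adjusted p = 0.214). DESeq2 called the latter (adjusted p = 0.0479). WT CITCO mice differed from corn oil mice by -0.43 (SE 0.20, adjusted p = 0.524, edgeR) and Car KO/hPXR from WT CITCO mice by 0.44 (SE 0.20, adjusted p = 0.508), without passing.

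Apoc3, an inhibitor of lipoprotein lipase and of remnant uptake, was 2588 ± 305 CPM in WT corn oil, 2509 ± 349 in WT CITCO, 2289 ± 425 in hCAR/hPXR and 2902 ± 451 CPM in Car KO/hPXR mice (SD, n = 3), and all groups overlapped. Its largest difference was -0.34 on the log2 scale, for hCAR/hPXR against Car KO/hPXR mice (SE 0.19, adjusted p = 0.565, edgeR). Apoc3 thus gave no call beside Apoa4 and Apoa5, between which and Apoa1 it lies.

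Apoa1, the main structural protein of HDL, was 3639, 3675 and 3432 CPM in WT corn oil mice and 4434, 4244 and 4007 CPM in WT CITCO mice, which did not overlap. The difference was 0.24 on the log2 scale and did not pass (SE 0.17, adjusted p = 0.734, edgeR). In hCAR/hPXR mice Apoa1 spread from 3357 to 4679 CPM, across both WT groups. Car KO/hPXR mice, at 4143 to 4628 CPM, were above the corn oil mice by 0.29 (SE 0.17, adjusted p = 0.929).

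Apoa2, the other abundant HDL protein, begins 4353 bases after the end of Nr1i3, the gene replaced or removed in the humanised mice. It was 4418, 3808 and 3252 CPM in WT corn oil mice and 4054, 3272 and 5118 CPM in WT CITCO mice. It was 3954, 3754 and 3853 CPM in hCAR/hPXR mice and 3477, 2562 and 2586 CPM in Car KO/hPXR mice. The hCAR/hPXR mice lay inside the WT range, and 2 of the 3 Car KO/hPXR mice were below every other mouse.

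Car KO/hPXR mice differed from WT CITCO mice in Apoa2 by -0.53 (SE 0.20, 95% interval -0.95 to -0.11, adjusted p = 0.379, edgeR) and from WT corn oil mice by -0.41 (SE 0.20, adjusted p = 0.874). The hCAR/hPXR mice differed from Car KO/hPXR mice by 0.42 (SE 0.20, adjusted p = 0.465). None of these passed. Tomm40l, whose annotation overlaps that of Nr1i3, had 12.06 to 39.73 counts in WT libraries, 6.44 to 17 in hCAR/hPXR libraries and 0 to 2.3 in Car KO/hPXR libraries.

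Apob, the structural protein of VLDL and of the LDL made from it, had overlapping values in all 4 groups. It was 494 ± 30.3 CPM in WT corn oil, 491 ± 10.1 in WT CITCO, 481 ± 51.3 in hCAR/hPXR and 481 ± 12.6 CPM in Car KO/hPXR mice (SD, n = 3). The highest library had 1.24 times the level of the lowest. The test for any difference among the groups gave an adjusted p of 0.996 for Apob (edgeR), at 573 to 1177 counts per library.

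The first comparison asked how expression differed with CITCO in WT mice, whose mouse CAR it activates weakly at best. It called none of the 10 genes, where 0.233% of all genes tested were called, and 1 of the 10 had groups that did not overlap, against 14.7% of all genes. The median log2 fold change of the 10 genes was -0.03, against -0.00028 over all genes. An unadjusted p under 0.05 was found for 1 of the 10 and for 9.13% of all genes, and the lowest adjusted p was 0.524 (edgeR). DESeq2 and limma called none of the 10 either.

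The second set hCAR/hPXR against WT mice, both given CITCO. It called none of the 10 by edgeR, where 0.407% of all genes were called. DESeq2 called 1, Apoc2, limma 0, and 2 of the 10 had an unadjusted p under 0.05 (8.81% of all genes). All 10 genes had a log2 fold change below 0, with a median of -0.18 against 0.013 over all genes, of which 51.6% were above 0. The 5 hepatocyte markers tested were also all below 0, with a median of -0.25. The groups did not overlap for 4 of the 10, against 13.6% of all genes. With Apoc2 summed with Gm44805, 9 of the 10 were below 0, with a median of -0.15, and 3 did not overlap.

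**Figure D3:**
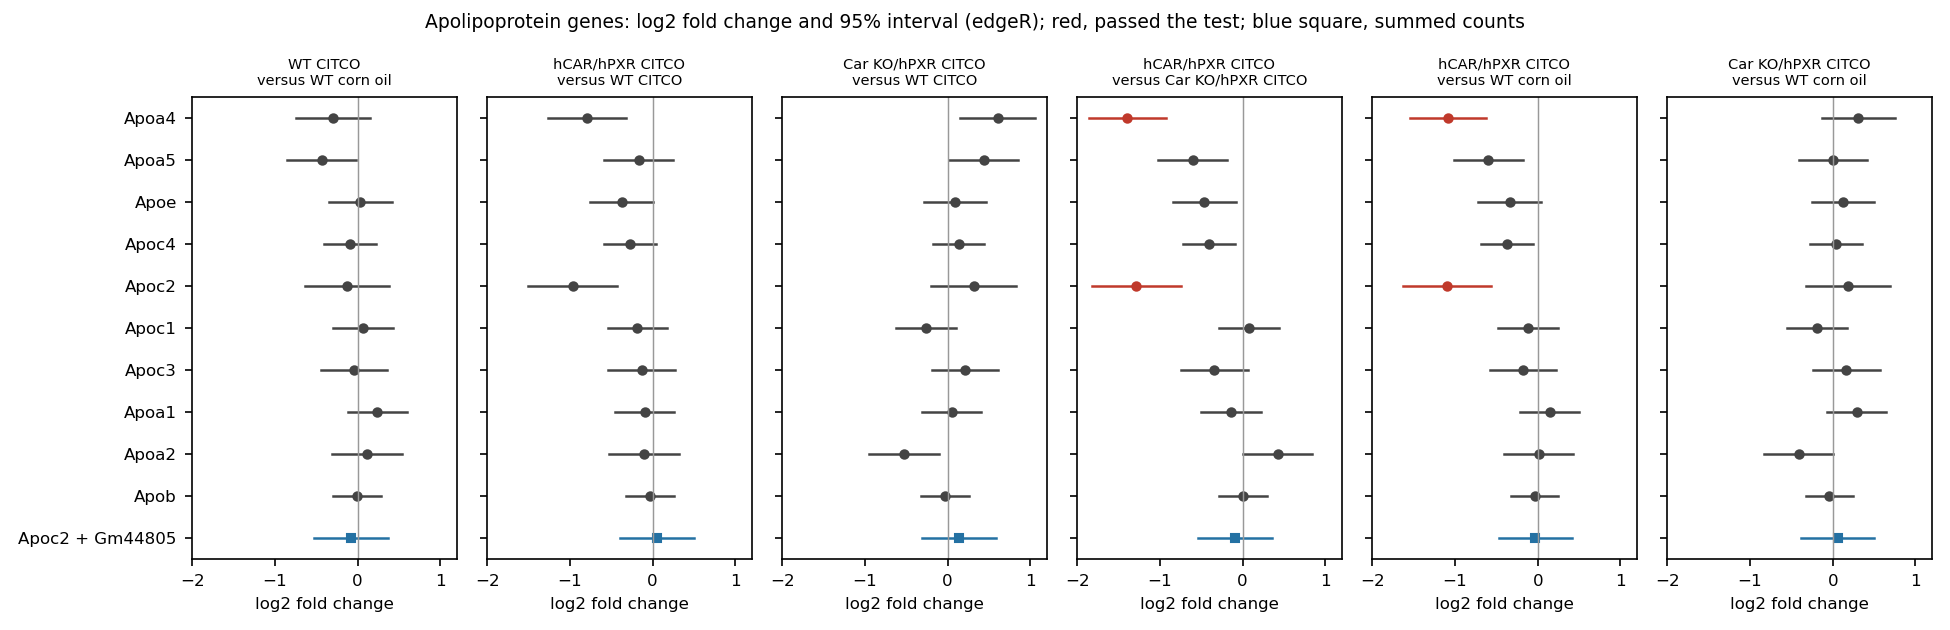
Log2 fold change (horizontal axis) of each apolipoprotein gene in the 6 comparisons, with its 95% interval from edgeR; red marks genes that passed the test, and the blue square gives Apoc2 and Gm44805 summed. Apoa4 and Apoc2 are red in both comparisons of hCAR/hPXR mice with Car KO/hPXR and WT corn oil mice, where the blue squares lie at -0.09 and -0.03.

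The third set hCAR/hPXR against Car KO/hPXR mice, which share human PXR and CITCO treatment and differ in human CAR. It called 2 of the 10, Apoa4 and Apoc2, where 0.582% of all genes were called, and 1 of them, Apoa4, once Apoc2 was summed with Gm44805. The groups did not overlap for 6 of the 10, against 15.1% of all genes, and the median was -0.38 against 0.013. Of the 10, 6 had an unadjusted p under 0.05 (10.6% of all genes). In fitted fold change 7 were below 0 and 3 above, and 51.5% of all genes were above. With Apoc2 summed with Gm44805 the median became -0.24, and 5 of the 10 did not overlap.

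The other comparisons used the same libraries and share their groups. Car KO/hPXR against WT CITCO mice called 0 of 10, where 0.256% of all genes were called, and 2 did not overlap (14.2% of all genes). By edgeR 3 of the 10 had an unadjusted p under 0.05 (9.30% of all genes), and DESeq2 and limma also called 0. Against WT corn oil mice, hCAR/hPXR mice gave 2 calls, again Apoa4 and Apoc2 (0.989% of all genes), with 5 of 10 not overlapping (16.2%, or 4 of 10 and 1 call with Apoc2 summed) and 4 at an unadjusted p under 0.05 (10.9%). Car KO/hPXR mice gave 0 calls against WT corn oil mice by edgeR, DESeq2 and limma (0.0465% of all genes), with 1 not overlapping (11.6%) and 0 at an unadjusted p under 0.05 (5.60%).

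The test for any difference among the 4 groups called Apoa4 and Apoc2 of the 10, where 1.42% of all genes were called. The adjusted p of Apoc2 was 0.0462 alone and 0.978 when summed with Gm44805 (edgeR). Leaving out single libraries, Apoc2 alone passed only without WT CITCO replicate 3 (adjusted p = 0.0384) or hCAR/hPXR replicate 2 (0.0026), and without any 1 of the other 10 the adjusted p was between 0.0556 and 0.258. Without a test, 4 of the 10 (Apoa4, Apoc2, Apoe and Apoc4) had all hCAR/hPXR libraries below the 9 others, against 0.954% of all genes. With Apoc2 summed with Gm44805 the number was 3. Summed over the 10 genes, expression was 25851, 24220 and 28502 CPM in hCAR/hPXR mice and 28962 to 32996 CPM in the other 9. Apoe made up 44.2% to 47.1% of that sum in hCAR/hPXR mice and 47.8% to 55.5% in the others.

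Other markers differed between the groups too. The 11 acute phase genes, all tested, summed to 11622 to 27106 CPM in hCAR/hPXR mice, 6542 to 14293 in WT CITCO, 7192 to 8253 in Car KO/hPXR and 6217 to 7120 CPM in WT corn oil mice. Of these genes 8 were called higher than in WT corn oil mice and 3 higher than in Car KO/hPXR mice, among them Hp, which encodes haptoglobin (log2 fold change 1.66, adjusted p = 0.00601, edgeR). Against WT CITCO mice 0 were called by edgeR, with 8 at an unadjusted p under 0.05 and 2 called by DESeq2, and 2 were called higher in WT CITCO than in WT corn oil mice. The 8 calls against WT corn oil mice became 1 to 9 and the 3 against Car KO/hPXR mice became 0 to 7 without single libraries, lowest without WT corn oil replicate 3 and Car KO/hPXR replicate 3 and highest without hCAR/hPXR replicate 2, and the call of Hp was lost without Car KO/hPXR replicate 3 (adjusted p = 0.0622). Hepatocyte markers, 5 of 6 matched, gave 0 calls by edgeR and by DESeq2 and 0 unadjusted p-values under 0.05. In hCAR/hPXR mice their median log2 fold change was -0.25 against WT CITCO (5 lower, 0 higher) and -0.35 against Car KO/hPXR mice (4 lower, 1 higher). Summed, they stood at 24882 and 26129 CPM in 2 hCAR/hPXR libraries and at 40347 in the other.

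Of 12 fasting response genes 10 were tested, and they summed to 2858 to 4422 CPM in hCAR/hPXR, 3694 to 4394 in WT CITCO, 2961 to 4935 in Car KO/hPXR and 4258 to 5262 CPM in WT corn oil mice. In hCAR/hPXR against WT CITCO mice 8 were lower and 2 higher (median log2 fold change -0.25), with 4 at an unadjusted p under 0.05 by edgeR (8.81% of all genes). Against WT corn oil mice 9 were lower and 1 higher (median -0.55), with 8 at an unadjusted p under 0.05 (10.9% of all genes). Igfbp1, unlike most of the list, was called higher than in WT CITCO mice (2.72, adjusted p = 0.000783, edgeR). Cyp4a10 was called lower than in WT corn oil mice (-2.09, adjusted p = 0.0147). The call of Igfbp1 held without each library in turn, and that of Cyp4a10 was lost without WT corn oil replicate 1 or any 1 of the hCAR/hPXR replicates (adjusted p between 0.0608 and 0.0938). The 5 red blood cell markers summed to 1859 to 2192 CPM in hCAR/hPXR mice and 1987 to 3985 CPM elsewhere, with Alas2 called lower than in WT corn oil mice (-1.01, adjusted p = 0.0264), a call lost without any 1 of the WT corn oil replicates or hCAR/hPXR replicate 1 or 3 (adjusted p between 0.057 and 0.159). Markers of sinusoidal endothelium (6 tested), stellate cells (4) and bile duct (1) gave no call in any comparison by edgeR or DESeq2, with 0 to 2, 0 to 1 and 0 to 1 genes at an unadjusted p under 0.05. The part of these markers in the apolipoprotein levels was not tested.

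Other genes of the lipoprotein pathway were taken by role. Of 16 genes that assemble and secrete VLDL, all tested, 0 were called in any of the 6 comparisons by edgeR, and 1 to 2 had an unadjusted p under 0.05. DESeq2 called 1, the lipase Ces1d, higher in hCAR/hPXR than in WT corn oil mice (0.98, adjusted p = 0.0191), and edgeR called it there without hCAR/hPXR replicate 3 (1.21, adjusted p = 0.0315). The most abundant, P4hb, a subunit of the transfer protein that loads lipid onto apolipoprotein B, was 848 ± 74.5 CPM in hCAR/hPXR and 843 ± 50.9 CPM in WT CITCO mice (SD, n = 3). The list median was 0.13 between those groups and -0.05 for hCAR/hPXR against Car KO/hPXR mice.

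Of 13 genes that form and remodel HDL 10 were tested and 1 was called. Apom, a small apolipoprotein of HDL that carries sphingosine 1-phosphate, was 181 ± 10.5 CPM in hCAR/hPXR and 92.0 ± 8.48 CPM in WT corn oil mice (SD, n = 3), a rise of 0.97 on the log2 scale (SE 0.21, adjusted p = 0.0303, edgeR). That call was lost without any 1 of these 6 libraries (adjusted p between 0.0519 and 0.173). Pon1, an esterase bound to HDL, was 497 ± 29.4 CPM in hCAR/hPXR and 783 ± 108 CPM in WT CITCO mice and passed no comparison by edgeR, while DESeq2 called that difference (adjusted p = 0.00327). Of 14 genes that clear triglyceride-rich particles 12 were tested and 0 were called by edgeR or DESeq2, with 0 to 3 at an unadjusted p under 0.05. Without hCAR/hPXR replicate 2, Lpl, which encodes lipoprotein lipase, was called against WT corn oil mice. Ces1d and Lpl are named here after their values were seen.

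Of 18 other genes with an apolipoprotein name 9 were tested. Besides Apom, Apol7a was called, a member of the Apol family, whose products are mostly found inside cells. It lay between 36.7 and 52.8 CPM in the 3 hCAR/hPXR mice, and between 77.8 and 102 CPM in WT CITCO, 73.1 and 104 in Car KO/hPXR and 85.7 and 124 CPM in WT corn oil mice. It fell by 1.08 on the log2 scale against WT CITCO (adjusted p = 0.0201, edgeR), by 0.95 against Car KO/hPXR (adjusted p = 0.0414) and by 1.23 against WT corn oil mice (adjusted p = 0.00493). It was called in all 3 comparisons of the hCAR/hPXR mice, which none of the 10 genes above was by edgeR. The call against WT corn oil mice held without each library in turn. That against WT CITCO mice was lost without WT CITCO replicate 2 or 3 or hCAR/hPXR replicate 2 or 3 (adjusted p between 0.0803 and 0.125), and that against Car KO/hPXR mice without any 1 of the 6 libraries (0.0651 to 0.16). Its paralog Apol7c had no count in any library, and reads of such near copies can be divided between them.

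Of 22 regulators known to act on apolipoprotein genes 21 were tested and 3 were called. Onecut1, a liver factor also called HNF6, was 12.9 ± 9.19 CPM in WT corn oil, 116 ± 27.2 in WT CITCO, 27.9 ± 8.88 in hCAR/hPXR and 44.3 ± 3.03 CPM in Car KO/hPXR mice (SD, n = 3). It was called in WT CITCO against corn oil mice (3.17, adjusted p = 0.000195, edgeR) and in hCAR/hPXR against WT CITCO mice (-2.04, adjusted p = 0.00262). Both calls of Onecut1 held without each library in turn. Foxa2, a factor that opens liver enhancers, was 22.7 ± 2.80, 49.5 ± 6.95, 20.7 ± 2.26 and 44.7 ± 6.45 CPM in the same order of groups. It was called in WT CITCO against corn oil mice (1.12, adjusted p = 0.0292) and in hCAR/hPXR mice against WT CITCO (-1.25, adjusted p = 0.00961) and Car KO/hPXR mice (-1.10, adjusted p = 0.0242). The first of these calls of Foxa2 held only without WT CITCO replicate 3 (adjusted p without the others 0.0581 to 0.204), the second was lost without WT CITCO replicate 1 (0.0708), and the last held only without Car KO/hPXR replicate 2 (0.0627 to 0.14 without the others).

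Nr1d1, the clock repressor REV-ERB alpha, was 119 ± 28.5 CPM in Car KO/hPXR and 37.8 ± 17.0 CPM in WT CITCO mice (SD, n = 3), a rise of 1.66 (adjusted p = 0.0298, edgeR) that was not called without WT CITCO replicate 1 or 2 or Car KO/hPXR replicate 2 or 3 (adjusted p between 0.0933 and 0.205). It stood at 80.8 ± 10.4 CPM in WT corn oil mice. Hnf4a, a main activator of the chromosome 9 genes, passed no comparison and was 132 ± 20.2 CPM in hCAR/hPXR and 109 ± 33.0 CPM in Car KO/hPXR mice. In none of the 6 comparisons were more than 2 regulators called by edgeR or by DESeq2.

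**Figure D4:**
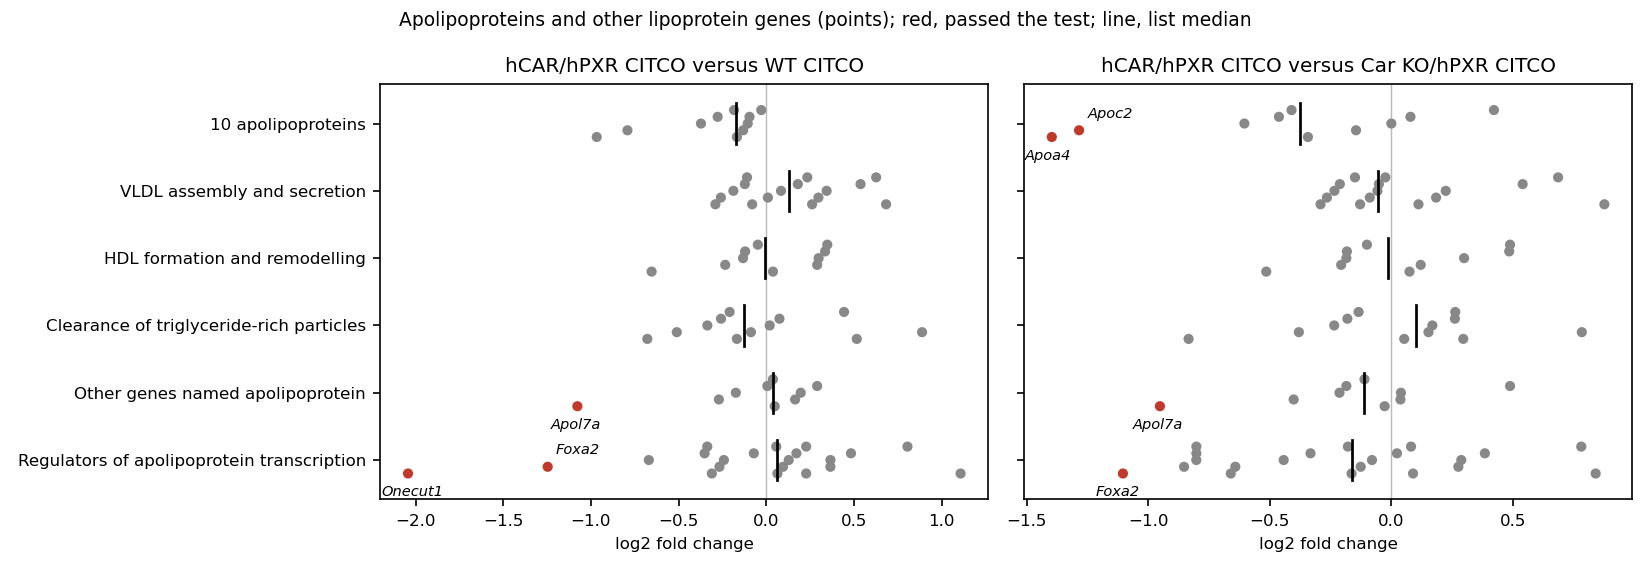
Log2 fold change (horizontal axis) of the 10 apolipoprotein genes and of 5 lists of other lipoprotein genes, in hCAR/hPXR against WT CITCO mice (left) and against Car KO/hPXR mice (right); each point is a gene, red points passed the test and black lines are list medians. The apolipoprotein median lies at -0.18 and -0.38, and the VLDL list, with no red point, has medians of 0.13 and -0.05.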

How the data were processed

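Liver RNA of 12 male mice in 4 groups of 3 was sequenced from the 3' end of mRNA (Lexogen QuantSeq, Ion Torrent), with each group read from the labels of the samples. The authors trimmed reads with Trimmomatic, aligned them with STAR 2.5.2 to GRCm38 and deposited RSEM 1.3 expected counts per gene, without normalization, for 51912 genes. RSEM divides reads that fit several genes, and 13.8% of detected values were not whole. A further deposited table holds log2-like values (the authors' variance-stabilising transformation in DESeq2) for 17859 genes, which gave symbols and 1 alternative test.

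Expected counts were rounded, filtered and TMM-scaled, and tested with edgeR 4.0.16 in R 4.3.3 (quasi-likelihood test, all 12 libraries, 1 mean per group), with a call at a Benjamini-Hochberg adjusted p under 0.05 and over 1.5-fold. The test for any difference among groups had no limit on the fold. DESeq2 1.42.0 and limma 3.58.1 were alternatives. Tests were checked on simulated counts with the same spread for every gene. That check does not give their power for the differences reported here. A count of 3 corresponded to 1.34 to 2.50 CPM, which bounds low genes and covers counting error only. Coordinates are from GENCODE M21 on GRCm38, another release than the authors'.

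The 10 genes, the gene lists and the alternatives were chosen with earlier results of these data known. All 10 genes are described, and from the lists the genes called in any comparison and up to 4 of the most abundant, of which 1 is not reported here. The genes most like a member's pattern are given for the members that were called and the one that varied most over the 12 libraries.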

Additional observations from a re-analysis of the deposited data

How the results depend on the processing

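The number of the 10 genes called was recomputed with other size factors, DESeq2, limma, fits of the compared groups alone, other filters, a replicate block, no limit on the fold, and without each library in turn. Counts stayed within 1.5 times of the reported ones except as follows. Between hCAR/hPXR and WT CITCO mice the count of 0 became 1 with DESeq2 (Apoc2) and 2 without a filter (Apoa4 and Apoc2), where 1.29% and 0.917% of all genes were called. Between hCAR/hPXR and WT corn oil mice it was 1 instead of 2 when the groups were fitted alone. The test for any difference called 4 genes with DESeq2's likelihood ratio test, adding Apoa5 and Apoe, where it called 2.59% of all genes. Over the 6 comparisons of groups, DESeq2 called 12 to 127 and the fit without a filter 95 to 261 of all genes, against 4 to 85 as reported. The cause was not tested. Summing Apoc2 with Gm44805, added after seeing the data, left 1 call (Apoa4) in hCAR/hPXR against Car KO/hPXR mice with edgeR and with DESeq2, 1 between hCAR/hPXR and WT corn oil mice and 1 for any difference. It turned the difference of Apoc2 between hCAR/hPXR and WT CITCO mice to 0.0501 (edgeR) and 0.0338 (DESeq2) on the log2 scale, since the reads of Gm44805 were added back.

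Leaving out single libraries gave 1 to 2 calls in hCAR/hPXR against Car KO/hPXR mice, 0 to 2 against WT corn oil mice, 0 to 1 against WT CITCO mice, 0 to 2 for any difference and 0 in each of the remaining comparisons. Over all genes, calls in hCAR/hPXR against Car KO/hPXR mice ranged from 10 without Car KO/hPXR replicate 3 to 58 without hCAR/hPXR replicate 2. Replicate numbers were not used as pairs in the main fit. Of 18 same-number pairs 0 had deviations correlated over 0.1, with a highest r of 0.0735. Among pairs of other numbers the highest r was 0.135. The median r was 0.0308 for same-number pairs and -0.00878 for pairs of other numbers. Whether the numbers mark mice that were handled together was not tested. For 8 of 12 libraries, the mean correlation with libraries of the other groups was highest for those of their own number, out of 3 numbers. With a replicate block the members called were again 2 in hCAR/hPXR against Car KO/hPXR mice and 2 against WT corn oil mice. Of the 60 differences between groups, 18 changed sign in some alternative. Apart from Apoc2 summed, these were differences of at most 0.168 on the log2 scale.

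With 3 mice a group, differences such as those of Apoe and Apoc4 have intervals that reach from near 0 to over 1.5-fold, so they cannot be settled here. Humanised mice given corn oil were not analysed here. Reads counted at the 3' end do not separate Apoc2 from Gm44805.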
